A study of Mus musculus with 4 samples.

Results

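The 40 genes described here encode proteins that copy DNA and divide the cell. They were taken by name and fall into 12 genes of DNA replication and S phase, 19 genes of mitosis, and 9 genes that act in G1 or regulate entry into the cycle. Each gene was represented by its brightest probe set with a single gene symbol, out of 12393 genes so named on the array. Of the 40, 39 were measured, since no probe set carried Ccnb1 (cyclin B1) as its single symbol, and 32 lay above a filter on dim signals and were tested. The tested members were 10 replication genes, 14 mitotic genes and 8 G1 and regulator genes.

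The RNA came from tumour-associated macrophages, sorted by flow cytometry after collagenase digestion of tumours from GIST mice. GIST, or gastrointestinal stromal tumour, is a sarcoma arising in the wall of the gut. One group had received vehicle and the other imatinib, a tyrosine kinase inhibitor, at 600 mg/L in the drinking water, and tumours were taken after 2 weeks. Each group had 8 mice, whose macrophages were pooled, and each pool was run on 2 Affymetrix arrays, from 200 ng of RNA each. The labels name no allele, promoter, age or sex for these mice. Sample titles speak of biological replicates, whereas the series' design speaks of duplicate arrays from pooled cells, so the p-values measure only the spread between these arrays, which may be technical.

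The cell cycle runs through G1, S phase, G2 and mitosis. D-type and E-type cyclins with their kinases release E2F transcription factors in G1, which switch on genes for the replication machinery and for nucleotide supply. Cyclins A and B with Cdk1 then drive mitosis, where kinases, motor proteins and checkpoint proteins align and part the chromosomes. Tissue macrophages can divide locally, and the crypts of the intestinal epithelium are among the fastest dividing tissues of the body.

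As background, CHR elements are known from promoters of many mitotic genes and E2F sites from those of many replication genes. Promoter windows of 300 bases (250 before and 50 after the annotated start) were found for 33 of the 40 members in RefSeq annotation of GRCm38.p6, some with more than 1 window. The windows below are those of 4 members that passed the test, the mitotic genes Bub1 and Cdc20 and the replication genes Mcm2 and Rrm2, and of Mcm6, whose probe sets differed in direction. Each is read 5′ to 3′ on the strand of the gene. Capitals mark the letters TTTGAA (the cell cycle genes homology region, CHR), TTCCCGC or TTGGCGC (E2F sites) and CCAAT (the NF-Y box), on either strand.
Bub1, chr2:127831810-127832109, minus strand: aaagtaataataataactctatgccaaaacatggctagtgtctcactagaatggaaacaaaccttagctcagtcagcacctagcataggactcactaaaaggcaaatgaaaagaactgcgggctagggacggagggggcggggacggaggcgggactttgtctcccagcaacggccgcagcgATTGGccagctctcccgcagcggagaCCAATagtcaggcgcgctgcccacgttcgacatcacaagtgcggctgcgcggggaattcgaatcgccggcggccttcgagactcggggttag
Cdc20, chr4:118437294-118437593, minus strand: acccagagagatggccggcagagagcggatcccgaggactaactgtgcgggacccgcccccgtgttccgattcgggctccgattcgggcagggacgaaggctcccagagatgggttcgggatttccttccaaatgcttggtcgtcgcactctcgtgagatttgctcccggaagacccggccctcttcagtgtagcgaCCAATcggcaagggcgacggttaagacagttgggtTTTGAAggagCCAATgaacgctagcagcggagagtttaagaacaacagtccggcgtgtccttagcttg
Mcm2, chr6:88898731-88899030, minus strand: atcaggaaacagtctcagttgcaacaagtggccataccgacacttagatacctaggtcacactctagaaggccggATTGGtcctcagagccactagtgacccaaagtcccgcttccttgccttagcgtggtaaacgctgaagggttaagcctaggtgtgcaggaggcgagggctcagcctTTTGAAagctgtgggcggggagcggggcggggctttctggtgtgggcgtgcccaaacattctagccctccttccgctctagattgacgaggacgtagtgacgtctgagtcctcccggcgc
Rrm2, chr12:24708004-24708303, plus strand: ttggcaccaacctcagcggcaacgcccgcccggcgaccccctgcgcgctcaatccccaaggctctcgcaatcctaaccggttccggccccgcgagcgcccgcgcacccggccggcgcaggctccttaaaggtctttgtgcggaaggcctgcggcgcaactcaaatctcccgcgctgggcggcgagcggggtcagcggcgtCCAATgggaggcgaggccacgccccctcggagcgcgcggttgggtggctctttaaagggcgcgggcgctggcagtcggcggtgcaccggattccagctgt
Mcm6, chr1:128359656-128359955, minus strand: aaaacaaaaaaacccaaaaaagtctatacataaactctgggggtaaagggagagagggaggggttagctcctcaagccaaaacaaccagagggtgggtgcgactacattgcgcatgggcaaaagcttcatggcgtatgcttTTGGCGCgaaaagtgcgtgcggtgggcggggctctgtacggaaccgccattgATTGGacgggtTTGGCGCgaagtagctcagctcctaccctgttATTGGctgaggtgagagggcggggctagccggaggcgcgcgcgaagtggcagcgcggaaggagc

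The CHR letters were present in 10 of the 15 windows of mitotic members (66.7%), in 1 of 12 windows of replication members (8.33%) and in 0 of 9 windows of G1 and regulator members, against 17.9% of all 32851 windows in the table. The E2F letters were present in 7 of 12 replication windows (58.3%), 3 of 15 mitotic windows (20%) and 1 of 9 G1 and regulator windows (11.1%), against 6.81% of all windows. The CCAAT letters were present in 9 of 12 replication windows (75%), 13 of 15 mitotic windows (86.7%) and 3 of 9 G1 and regulator windows (33.3%), against 37.4% of all. Both strands were searched, and TTGGCGC can overlap CCAAT on the other strand, as in the window of Ccnb1. Among the windows printed, Cdc20 held the CHR letters 18 bases before the start, Mcm2 held them 70 bases before it, and Mcm6 held the E2F letters at 109 and 46 bases before it. Bub1 and Rrm2 held only CCAAT, and neither Mcm2 nor Rrm2 held the E2F letters. For the CHR and E2F letters, Cdc20 was thus like most windows of its class, while Bub1, Mcm2 and Rrm2 were not. These matches describe the letters in each window and do not show that a factor binds there. Only these exact letters were searched, so a window without them is not shown to lack a site.

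Signals are MAS5 intensities on a linear scale. Differences are of log2(signal + 32), imatinib minus vehicle, tested with limma across 8156 genes, where an adjusted p (Benjamini-Hochberg) below 0.05 passed. Adding 32 understates the change of dim genes, and folds are on that scale. Of all tested genes, 550 (6.74%) were higher and 722 (8.85%) lower with imatinib, with a median difference of -0.02. Higher genes made up 43.2% of the calls, against 69.6% with array medians set equal and 2.13% with macrophage markers set equal. Those scalings shift the differences by 0.18 and -0.45.

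On their brightest probe sets, replication and S-phase genes were lower in part, and no member of the class was higher. Without probe sets that may match other transcripts, 0 were lower and 1, Mcm6, was higher. Mcm4 and Mcm2, which encode subunits of the MCM helicase that unwinds DNA at the fork, and Rrm2, the regulated subunit of ribonucleotide reductase, which makes deoxyribonucleotides, fell. The other 7 tested replication genes did not pass the test. The 3 lower calls among 10 tested genes compare with 8.85% of all genes. The class median was -0.16 as deposited, with 9 of 10 differences negative, against 52.9% of all genes. With array medians set equal, the median was 0.03 and 5 of 10 were negative, against 2483 of all 8156 genes. Without probe sets that may match other transcripts, 6 of 10 were negative, against 4013 of 7783 genes.

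Rrm2 had signals of 1274 and 1277 with vehicle against 715 and 748 with imatinib. The groups did not overlap, and the arrays of each group lay close together. The mean went from 1276 ± 1.99 to 732 ± 23.1 (SD, n = 2), which is 1.71-fold lower (log2 difference -0.78 ± 0.10, SE, limma adjusted p = 0.000412). The call was lost with the mean of its probe sets (-0.39, limma adjusted p = 0.195) and without probe sets that may match other transcripts (-0.44, limma adjusted p = 0.136). Mcm4 had signals of 3240.1 and 2367 with vehicle against 1658 and 1508 with imatinib. Both imatinib arrays were below both vehicle arrays, although the vehicle arrays themselves differed clearly. The difference was -0.80 ± 0.13 (1.74-fold lower, limma adjusted p = 0.00214). The call was lost without probe sets that may match other transcripts (-0.21, limma adjusted p = 0.299) and without the mean-variance trend of the fit (limma adjusted p = 0.061). Mcm2 had signals of 775 and 706 with vehicle against 563 and 404 with imatinib. Its groups did not overlap, and the imatinib arrays were the more spread. The difference was -0.60 ± 0.15 (1.51-fold lower, limma adjusted p = 0.0244). This call was lost without vehicle replicate 1 (limma adjusted p = 0.104), without imatinib replicate 2 (limma adjusted p = 0.141) and with array medians set equal (limma adjusted p = 0.0545).

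The other subunits of the helicase ring did not pass the test. Mcm6 had a log2 difference of -0.20 (95% interval -0.44 to 0.05), Mcm3 of -0.12 (-0.35 to 0.10), Mcm7 of -0.04 (-0.28 to 0.20) and the dim Mcm5 of -0.01 (-0.61 to 0.59). Of these, Mcm3, Mcm5 and Mcm7 were positive with array medians set equal (0.07, 0.15 and 0.15). With the mean of probe sets, Mcm3 was at -0.31, Mcm7 at -0.11 and Mcm6 at 0.23, and none of them passed. Cdc6, the factor that loads the helicase onto origins, had a difference of -0.01 (-0.65 to 0.64, or 0.14 with array medians set equal). Rrm1, the large subunit of ribonucleotide reductase and partner of Rrm2, had a difference of -0.20 (-0.51 to 0.12).

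Pcna, the sliding clamp that holds DNA polymerase on its template, had the highest difference of the class. Its signals were 2592 and 2865 with vehicle and 3234 and 2965 with imatinib. Both imatinib arrays were above both vehicle arrays, by a margin smaller than the gap between the arrays of either group. The difference of 0.18 ± 0.09 (95% interval -0.02 to 0.38, limma adjusted p = 0.217) did not pass the test, and it was -0.27 with macrophage markers set equal. The thymidylate genes Tyms and Tk1, which supply the thymine nucleotide, lay below the filter. Tyms was near background, with signals from 0.896 to 12.4, and Tk1 had signals of 79.6 and 38.8 with vehicle against 30.5 and 22.0 with imatinib.

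Mitotic genes were mostly negative, and 2 of 14 tested genes passed as lower, against 8.85% of all genes. These were Bub1, a kinase of the spindle checkpoint at kinetochores, and Cdc20, the activator of the anaphase-promoting complex that this checkpoint holds back. No mitotic member passed as higher. The class median was -0.33, and 13 of 14 differences were negative, against 52.9% of all genes. The median stayed negative under every alternative run, from -0.79 with macrophage markers set equal to -0.17 with array medians set equal, while over all genes it was -0.47 and 0.16 under those scalings. These scalings shift all genes nearly alike, so they bear little on the place of the class among all genes. With the mean of probe sets the medians were -0.31 for the class and -0.02 for all genes. The 4971 tested genes with a mean signal in the range of the mitotic members, 87.0 to 628, had a median of -0.07, and 8.83% of them were lower.

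Bub1 had signals of 358 and 410.3 with vehicle against 168 and 176 with imatinib. Each imatinib array was well below each vehicle array. The mean went from 384 ± 37.1 to 172 ± 5.57 (SD, n = 2), which is 2.03-fold lower (log2 difference -1.02 ± 0.16, SE, limma adjusted p = 0.00162). Bub1 passed as lower under each alternative run, with differences from -1.48 to -0.77. Cdc20 had signals of 770.2 and 862 with vehicle against 452 and 426 with imatinib. These groups also lay far apart relative to the gap within each. The difference was -0.85 ± 0.12 (1.80-fold lower, limma adjusted p = 0.000786). The call was lost with the mean of its probe sets (-0.30, limma adjusted p = 0.285) and without probe sets that may match other transcripts (-0.14, limma adjusted p = 0.747).

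**Figure D1:**
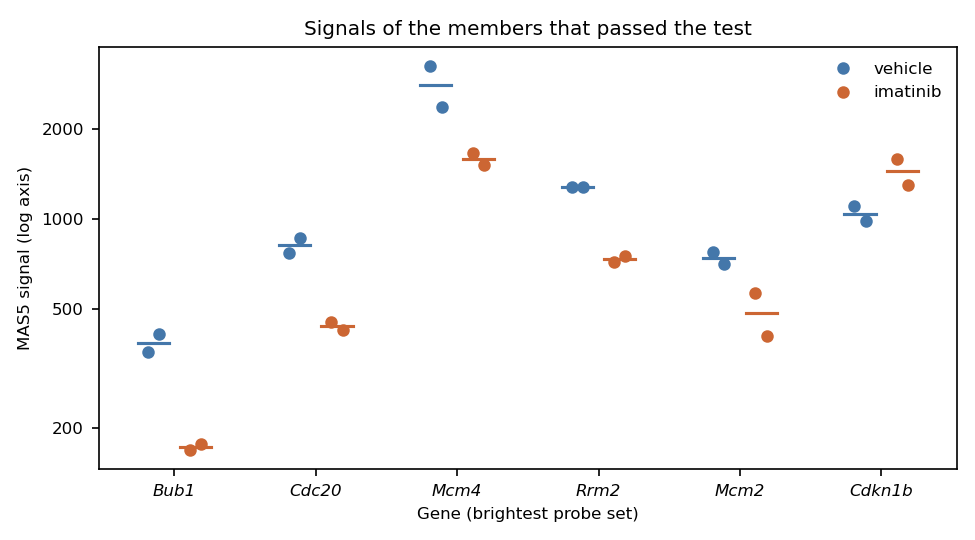
MAS5 signal (log axis) of the 6 members that passed the test, by array, with vehicle in blue and imatinib in orange. Points are arrays and bars are means of 2 arrays; imatinib lies below vehicle on both arrays for 5 genes, and above for Cdkn1b.

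Cyclin A2 (Ccna2), which acts in S phase and G2, was close to the threshold. Its signals were 425 and 314 with vehicle and 248 and 224 with imatinib. The groups did not overlap, and the difference of -0.57 ± 0.18 missed the threshold (limma adjusted p = 0.0522). It passed as lower under several alternatives, among them without vehicle replicate 2 (limma adjusted p = 0.0228), whereas without vehicle replicate 1 the difference was -0.37 (limma adjusted p = 0.311). Its dimmer probe set, fitted with all probe sets, also passed as lower (-0.77 ± 0.19, limma adjusted p = 0.0235). Cenpe, a kinetochore motor, had a larger but noisier difference (-0.69, 95% interval -1.27 to -0.11, limma adjusted p = 0.108). It passed as lower without imatinib replicate 2 (limma adjusted p = 0.0255) and with macrophage markers set equal (limma adjusted p = 0.00595), whereas without imatinib replicate 1 the difference was -0.35 (limma adjusted p = 0.496). Kif11, the motor that separates the spindle poles, had a difference of -0.47 (-1.21 to 0.27).

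Cdk1, Aurka and the general proliferation markers did not pass the test. Cdk1, the kinase of mitotic entry, had a log2 difference of -0.39 (95% interval -0.90 to 0.13), its partner cyclin B2 (Ccnb2) of -0.28 (-0.78 to 0.22) and the spindle kinase Aurka of -0.34 (-0.91 to 0.23). Mki67, which encodes the Ki-67 antigen of cycling cells, had a difference of -0.30 (-0.62 to 0.01), and Top2a, the topoisomerase that untangles sister chromatids, of -0.19 (-0.52 to 0.13). Birc5 (survivin, of the chromosomal passenger complex) had a difference of -0.32 and Nusap1, a spindle protein, of -0.20. Cenpa, the histone variant of centromeres, was at -0.02, or 0.16 with array medians set equal.

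Aurkb, the kinase of the chromosomal passenger complex, had the highest difference of the class and the only positive one. Its signals were 77.3 and 89.5 with vehicle and 92.7 and 113 with imatinib. The groups were separated by a few units of a dim signal, and the difference was 0.22 (95% interval -0.37 to 0.81, limma adjusted p = 0.64), or -0.23 with macrophage markers set equal. Bub1b, Plk1, Tpx2 and Kif20a lay below the filter and were not tested. Plk1, with a mean signal of 80.8, lay just under the filter at 82.9, and Kif11, with 87.0, lay just above it.

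G1 and regulator genes had a median difference of -0.15, or 0.04 with array medians set equal and -0.0058 without vehicle replicate 1, and 1 of 8 tested genes passed, as higher, against 6.74% of all genes. This was Cdkn1b, which encodes the inhibitor p27 of cyclin-dependent kinases. Its signals were 1100.2 and 979.6 with vehicle against 1585 and 1295 with imatinib. The groups did not overlap. The mean went from 1039.9 ± 85.2 to 1440.1 ± 206 (SD, n = 2), so that the imatinib level was 1.37-fold higher (log2 difference 0.45 ± 0.12, SE, limma adjusted p = 0.0267). The call was lost without vehicle replicate 2 (limma adjusted p = 0.113) and without imatinib replicate 1 (limma adjusted p = 0.199). With macrophage markers set equal, the difference was -0.00019. The call was also lost with the mean of its probe sets (0.29, limma adjusted p = 0.197), with no filter (limma adjusted p = 0.0731) and without the mean-variance trend (limma adjusted p = 0.139). A dimmer probe set of Cdkn1b had signals of 115 and 84.7 with vehicle and 90.7 and 137 with imatinib, which overlap. Its difference, fitted with all probe sets, was 0.13 ± 0.27 (limma adjusted p = 0.81).

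Cdkn1a, which encodes the related inhibitor p21, a target of p53, had the lowest difference of its class. Its signals were 2781 and 2347 with vehicle and 2111 and 2181 with imatinib. The imatinib arrays were both below the vehicle arrays, and the difference of -0.25 ± 0.10 did not pass the test (limma adjusted p = 0.126). It passed as lower without vehicle replicate 2 (limma adjusted p = 0.047) and with macrophage markers set equal (limma adjusted p = 0.000391). Without vehicle replicate 1 the difference was -0.13 (limma adjusted p = 0.563), and with array medians set equal it was -0.05 (limma adjusted p = 0.855). The D-type cyclins, which link growth factor signals to the cycle, did not pass on their brightest probe sets. Ccnd1 had a difference of -0.19 (95% interval -0.36 to -0.01, limma adjusted p = 0.144, and 0.0078 with array medians set equal), Ccnd2 of 0.02 (-0.17 to 0.22) and Ccnd3 of -0.23 (-0.62 to 0.16). Cdk4, the partner of these cyclins, had a difference of -0.11 (0.07 with array medians set equal), Cdk2, the partner of cyclins E and A, of 0.06 (-0.40 with macrophage markers set equal) and the transcription factor gene E2f1 of -0.21. Ccne1 (cyclin E1) lay below the filter.

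**Figure D2:**
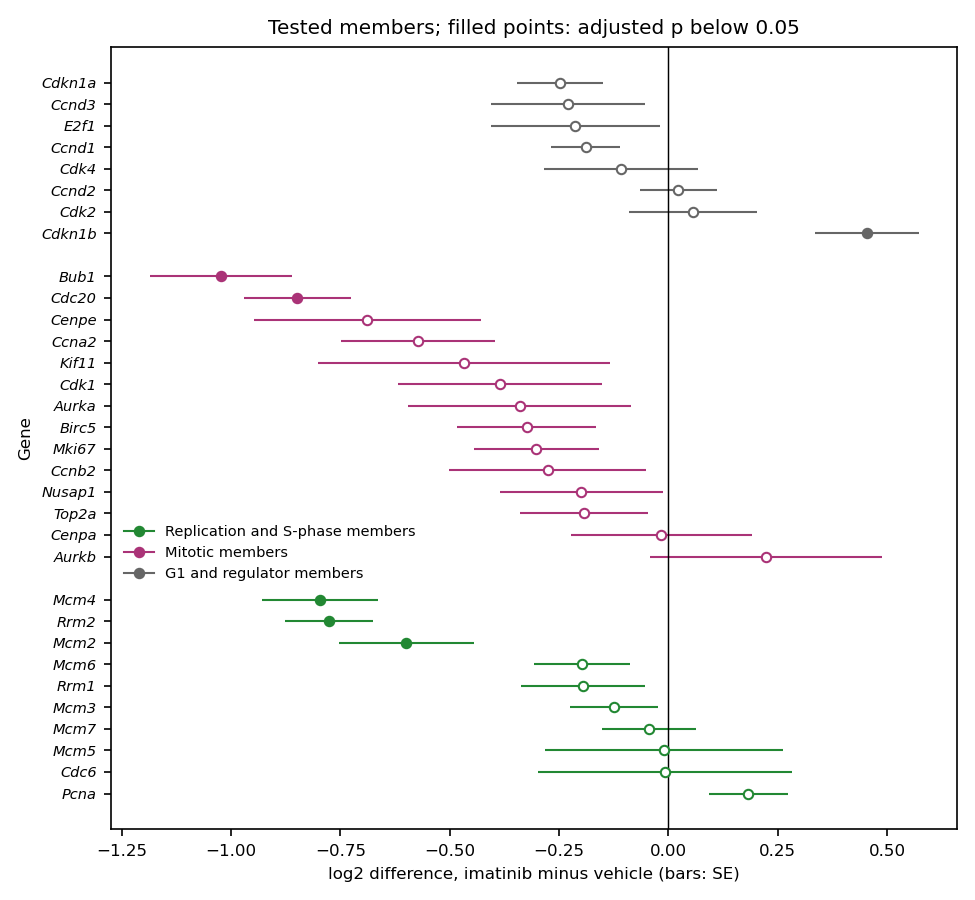
log2 difference (imatinib minus vehicle, x axis) of the 32 tested members with SE bars, in 3 classes by colour, filled where the limma adjusted p was below 0.05. Of 14 mitotic genes 13 lie left of 0, and 6 members in all are filled.

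Replication and mitotic genes were compared by their values on each array. The mean log2 signal of the 10 tested replication genes, relative to the vehicle mean, was 0.06 and -0.06 with vehicle against -0.19 and -0.32 with imatinib. For the 14 mitotic genes it was 0.08 and -0.08 against -0.40 and -0.37. As deposited and with the brightest probe sets, both classes were lower on each imatinib array than on each vehicle array. They were lower by more than the vehicle arrays differed. The 8 G1 and regulator genes, at 0.07 and -0.07 against -0.07 and -0.04, lay within the spread of the vehicle arrays. With array medians set equal, the median difference was 0.03 for replication, -0.17 for mitotic and 0.16 for all genes. Without probe sets that may match other transcripts, these medians were -0.01, -0.32 and -0.01.

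The gap between the classes changed between the groups by less than the imatinib arrays differed from each other. The mean of the mitotic genes minus that of the replication genes was -1.42 and -1.46 with vehicle against -1.64 and -1.49 with imatinib. The imatinib arrays were both lower, 1 of them by less than the vehicle arrays differed from each other, so a larger fall of the mitotic class was not shown. The median SE was 0.20 for mitotic and 0.12 for replication genes.

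Arrays of the groups did not overlap for 5 of 10 replication genes, 9 of 14 mitotic genes and 3 of 8 G1 and regulator genes with imatinib lower, against 30.1% of all genes. With imatinib higher, this held for 1 gene of each class (Pcna, Aurkb and Cdkn1b), against 26.1% of all genes. At an unadjusted p below 0.05, limma had 3 replication, 4 mitotic and 2 G1 and regulator genes lower, against 15.4% of all genes, and 1 gene, Cdkn1b, higher, against 12.6%.

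Probe sets of the same gene did not always move together. Several probe sets passed the filter for 15 members, and in 7 of these they lay on the same side of 0. The brightest probe sets of Mcm2, Mcm4, Rrm2 and Cdc20, all called, have identifiers ending in _s_at or _x_at, which Affymetrix uses for probe sets that may also match other transcripts. Fitted with all 13576 probe sets above the filter, 5 of 14 such probe sets of the members were lower and none higher, against 3 lower and 2 higher of the 45 others. Over the whole array, 11.2% of such probe sets and 6.63% of the others were lower. In that fit 7.38% of probe sets were lower and 6.2% higher.

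Without probe sets of this kind, no replication gene was lower and Mcm6 was higher, and Bub1 and Ccna2 were the lower mitotic genes. The second probe set of Cdc20 had signals of 253 and 162 with vehicle and 159 and 206 with imatinib, which overlap (difference -0.14 ± 0.23, limma adjusted p = 0.756). The second probe set of Mcm4 had signals of 824 and 993 against 752 and 809.5, which do not overlap, but its difference of -0.21 ± 0.12 did not pass (limma adjusted p = 0.332). That of Rrm2 had signals of 235 and 268 against 171 and 183, a difference of -0.44 ± 0.18 that did not pass (limma adjusted p = 0.148), and that of Mcm2 had 356 and 347 against 256 and 229 (-0.48 ± 0.15, limma adjusted p = 0.0665). The second probe sets of Mcm4, Rrm2 and Mcm2 thus separated the arrays of the groups in the same direction as the brightest ones. That of Cdc20 did not separate them. Both imatinib arrays lay below both vehicle arrays in 30.1% of all genes. Such separation, in probe sets that did not pass the test, is therefore only weak evidence of a fall.

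The helicase subunit Mcm6 gave opposite results on its probe sets. The brightest had signals of 758 and 803 with vehicle and 676 on both imatinib arrays. The other had 480.4 and 492 with vehicle against 711 and 867 with imatinib, and it rose (difference 0.66 ± 0.13, limma adjusted p = 0.0075). In Mcm7, 1 of 4 probe sets fell, with signals of 456 and 455 against 283 and 304 (-0.58 ± 0.14, limma adjusted p = 0.0198), while the other 3 had differences from -0.04 to 0.10. In Ccnd1, the 3 probe sets had differences of -0.19, -0.30 and -0.48, of which the last passed (limma adjusted p = 0.0442). In Mcm3, the brightest probe set was at -0.12 and the others at -0.42, 0.08, -0.60 and -0.46. None of the Mcm3 probe sets passed (limma adjusted p from 0.0675 to 0.823). Which probe set measures each transcript best was not tested.

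**Figure D3:**
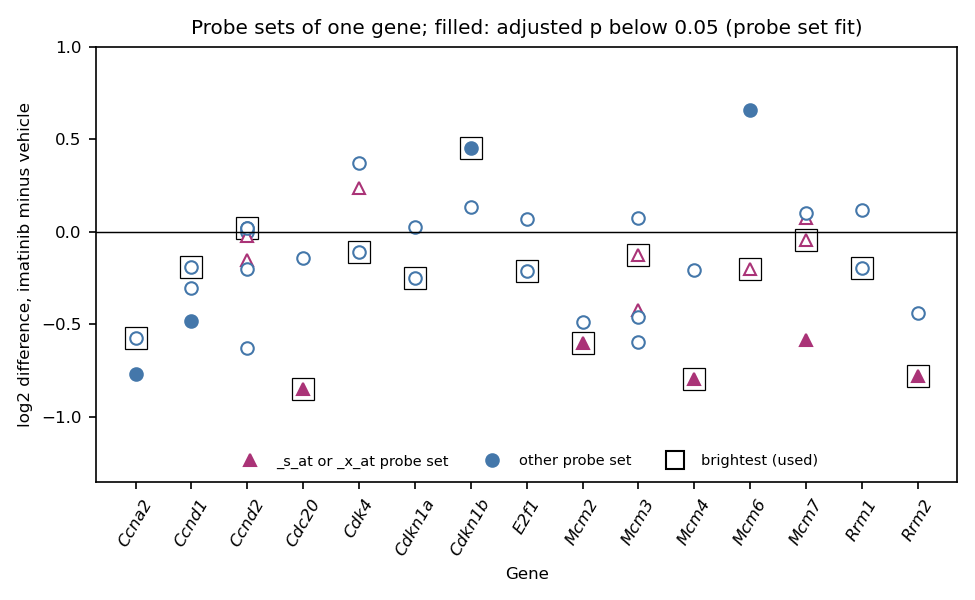
log2 difference (imatinib minus vehicle, y axis) of each probe set above the filter for the 15 members with several. Triangles are _s_at or _x_at probe sets, circles are others, squares mark the brightest, and filled symbols passed in the fit of all probe sets; Mcm6 has a probe set at 0.66 and its brightest at -0.20.

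Further genes of the cycle, from lists of replication, mitotic and regulator genes beside the 40, showed few calls. Of 39 other replication genes tested with limma, which include origin recognition, polymerase and clamp loader subunits, none passed (2 lower and 2 higher at an unadjusted p under 0.05), with a median difference of -0.10. Of 29 other mitotic genes, 2 were lower and none higher, with a median of -0.17. At an unadjusted limma p under 0.05, 5 of the 29 were lower and 0 higher, against 15.4% and 12.6% of all genes. Both imatinib arrays lay below both vehicle arrays for 14 of the 29, against 30.1% of all genes. They lay above for 2, against 26.1%. Of 30 other regulators, 1 was higher and 1 lower, with a median of -0.02. These shares lie at or below those of all genes (8.85% lower and 6.74% higher).

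The called genes of these lists were Cks1b, Kif2c, Btg2 and Cdkn2b. Cks1b, a small subunit of cyclin-dependent kinases, had signals of 1819.6 and 1793 with vehicle against 1165 and 1275 with imatinib, and fell (log2 difference -0.56 ± 0.09, limma adjusted p = 0.00246). Kif2c, a microtubule depolymerase of the centromere, measured by an _x_at probe set, had signals of 254 and 284 against 154 and 118, and fell (-0.85 ± 0.20, limma adjusted p = 0.0142). Btg2, an antiproliferative gene induced by p53, had signals of 5157 and 5071 against 10219 and 10365 and rose 2.01-fold (limma adjusted p = 5.79e-06). Cdkn2b, which encodes the Cdk4 and Cdk6 inhibitor p15, had signals of 209 and 243 against 52.0 and 101, and fell (-1.28 ± 0.26, limma adjusted p = 0.00776). Each of these 4 genes had groups that did not overlap.

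The sorted cells also held RNA of other cell types, whose level differed between the groups. Macrophage markers were bright. The brightest, Csf1r, C1qb and C1qa, did not pass the test, while 10 of 14 were higher with imatinib, with a summed signal of 146456 to 146516 on the vehicle arrays and 173963 to 183064 on the imatinib arrays. Epithelial markers were lower in 14 of 14 (Krt8, Lgals4 and Cdh1 the brightest), with a summed signal of 33159 to 33429 with vehicle and 6739.8 to 6903 with imatinib. Of 4 tested markers of intestinal crypts, where dividing epithelial cells lie, Prom1 and Myb were lower. Slc12a2 was among the 2 that did not pass, and the other measured crypt markers lay below the filter. The summed signal of the 10 measured was 5649.9 to 5773 against 2385 to 2607. Most of the fall in this sum was that of Prom1, whose mean was 3207 with vehicle and 551 with imatinib. Fibroblast markers were lower in 7 of 10 (Col3a1, Sparc and Col1a2 the brightest), with sums of 7943 to 8627 against 3992 to 4392. No list held a gene with a signal below 1 on all arrays.

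Among markers of other cells, 3 of 5 GIST and Cajal cell genes were lower. Of the leukocyte lists, 0 of 7 T cell genes, 2 of 5 B cell genes, 2 of 4 NK cell genes, 2 of 4 dendritic cell genes and 1 of 3 neutrophil genes were higher, and 1 B cell gene was lower. Of 5 endothelial genes, none passed (limma, 0 at an unadjusted p under 0.05 in this list and in the T cell list). The part of epithelial, crypt and fibroblast RNA in the lower signals of the mitotic and replication genes was not tested. In such bulk samples, fewer cells of a type and less RNA per cell cannot be told apart. Control probe sets for Gapdh and actin report on RNA quality by the 3′ signal over the 5′ signal. This ratio was 2.91 and 2.76 for Gapdh with vehicle against 2.34 and 2.09 with imatinib. For actin it was 3.99 and 3.58 with vehicle against 3.06 and 2.71 with imatinib. The part of RNA quality in these results was not tested either.

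**Figure D4:**
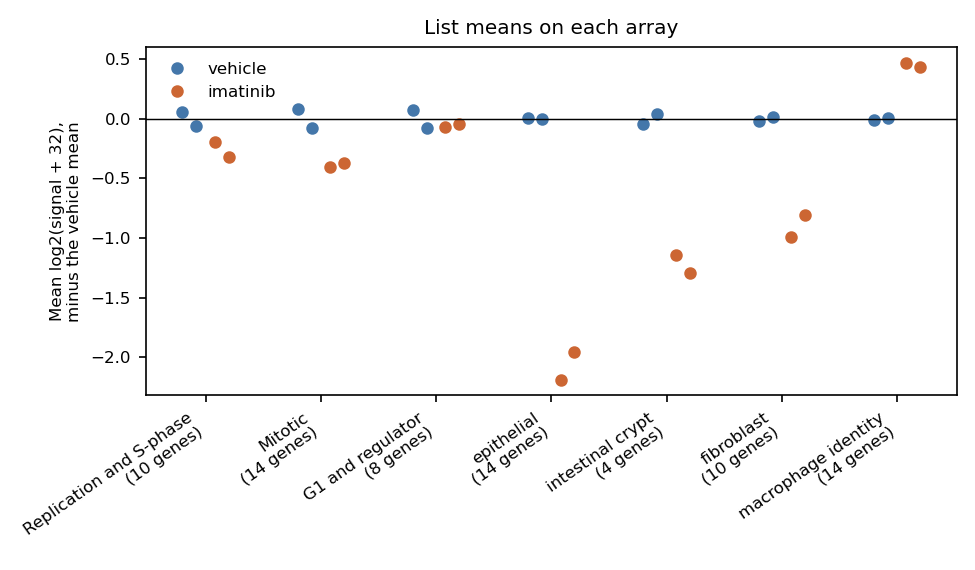
Mean log2(signal + 32) of each list's tested genes on each array, minus the list's vehicle mean (y axis), with vehicle arrays in blue and imatinib arrays in orange. The mitotic genes lie at -0.40 and -0.37 on the imatinib arrays, between the macrophage markers at 0.47 and 0.44 and the epithelial markers at -2.19 and -1.95.

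The position of the classes relative to all genes was compared across settings. With array medians set equal, the median differences were 0.16 over all genes, 0.03 for replication, -0.17 for mitotic and 0.04 for G1 and regulator genes. With quantile normalization they were 0.02, -0.15, -0.25 and -0.08. With the mean of macrophage markers set equal on all arrays they were -0.47, -0.61, -0.79 and -0.60. On that scale 8 of 10 replication, 12 of 14 mitotic and 7 of 8 G1 and regulator genes were lower, as were 5103 of all 8156 genes. Without _s_at and _x_at probe sets, the replication median was -0.01, beside -0.01 for all genes, and the mitotic median was -0.32.

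**Figure D5:**
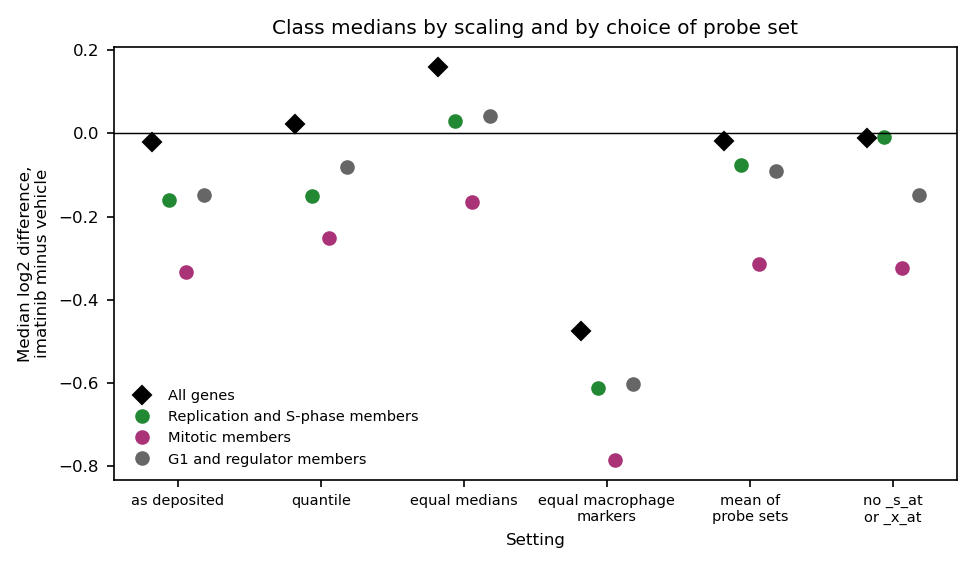
Median log2 difference (imatinib minus vehicle, y axis) of all tested genes (diamonds) and of the 3 classes (circles) under 6 settings. Under each of these settings the mitotic median is the lowest of the 4.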

How the data were processed

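Macrophage RNA from 2 vehicle and 2 imatinib arrays was compared. The deposited values are linear signal intensities. The submitters' processing notes name MAS5 and Affymetrix Expression Console for what the authors did, without settings. Every array had a trimmed mean of about 500.3, so the values are relative within an array. Of 22690 probe sets, 64 controls were left out, 20380 had 1 gene symbol in the platform annotation, 691 several and 1555 none. Genes were tested where the mean signal of the brightest probe set reached 82.9, which is percentile 40 over all probe sets, with limma's lmFit and eBayes, a mean-variance trend and two-sided tests on log2(signal + 32).

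The members, lists, tests, motifs and alternatives were chosen with earlier results of these data known. Signals per array are given for each called member and for the highest and lowest difference in each class, for probe sets of these genes, and for members chosen after their values were seen (Ccna2, Tk1, Tyms, Mcm6, Mcm7). Of the other cell cycle lists, up to 4 called genes in each direction are named, and of the marker lists up to 3 of the brightest. Alternatives were other pseudocounts (1 and 128), filters, scalings and probe set choices, other priors, a replicate block, and leaving out each array. The procedure was tested on simulated data. Fits used limma 3.58.1 with statmod 1.5.0 in R 4.3.3; sequences and plots used matplotlib 3.10.9 and pandas 2.3.3 in Python 3.11.15.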

Additional observations from a re-analysis of the deposited data

How the results depend on the processing

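Of the 5 lower members, Bub1 passed in each alternative, Mcm4 failed without the trend and without _s_at and _x_at probe sets, Rrm2 and Cdc20 failed with both other probe set choices, and Mcm2 failed with no filter, with array medians set equal, without _s_at and _x_at probe sets, without the trend and without either vehicle replicate 1 or imatinib replicate 2. Number of lower replication genes (3): 1 without the trend, 0 without _s_at and _x_at probe sets (1 higher), 8 with macrophage markers set equal, and 2 to 3 with an array left out, when a lone array is assumed to vary like the other group. Lower mitotic genes (2): 12 with macrophage markers set equal, 2 to 3 with an array left out. Higher G1 and regulator genes (1): 0 with no filter, with macrophage markers set equal, with the mean of probe sets and without the trend, and 0 to 1 with an array left out. Lower G1 and regulator genes (0): 7 with macrophage markers set equal, 1 (Ccnd1) with the mean of probe sets, 0 to 1 with an array left out. All genes (550 higher, 722 lower): 356 higher with no filter, 1245 with array medians set equal, 196 without the trend, 111 higher and 5103 lower with macrophage markers set equal, 294 to 461 higher and 488 to 701 lower with an array left out. With the replicate number as a block, 421 genes were higher and 634 lower, and the members called were 3, 2 and 1 in the 3 classes. The numbers share no stated animal or day, and the deviations of same-numbered arrays were only weakly, and negatively, related (r = -0.13 across genes). With crossed numbers, added after seeing the data, 880 genes were higher and 1095 lower, with 4 mitotic genes and 1 G1 and regulator gene lower.

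Differences that changed sign, as log2 values, did not pass unless stated. With array medians set equal they were 0.14 for Cdc6, 0.069 for Mcm3, 0.15 for Mcm5, 0.15 for Mcm7, 0.16 for Cenpa, 0.0078 for Ccnd1 and 0.074 for Cdk4. With quantile normalization they were 0.17 for Cdc6, 0.16 for Mcm5, 0.059 for Cenpa and -0.016 for Ccnd2. With macrophage markers set equal, Pcna (-0.27), Ccnd2 (-0.43) and Cdk2 (-0.40) passed as lower, while Aurkb (-0.23) and Cdkn1b (-0.00019) did not pass. With the mean of probe sets they were 0.23 for Mcm6, -0.14 for Ccnd2 and 0.17 for Cdk4. Without _s_at and _x_at probe sets they were 0.076 for Mcm3 and 0.10 for Mcm7, and Mcm6 passed as higher (0.66, limma adjusted p = 0.00478). With a pseudocount of 1, Cdc6 was at 0.00033. With each array left out in turn, the difference ran from -0.27 to 0.26 for Cdc6, -0.27 to 0.25 for Mcm5, -0.13 to 0.046 for Mcm7, -0.30 to 0.26 for Cenpa, -0.051 to 0.096 for Ccnd2, -0.47 to 0.016 for Ccnd3, -0.096 to 0.21 for Cdk2 and -0.30 to 0.087 for Cdk4. The cause of these changes was not tested. The number of arrays and the dim signal of several mitotic genes limit the precision.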
